A study of Rattus norvegicus with 18 samples.

Results

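Rat germ cells that had spent 20 days on feeder layers of MSC1, a mouse cell line derived from Sertoli cells, were compared with germ cells that had bound to laminin, a protein of the basement membrane on which spermatogonia rest. The libraries were chosen by their titles, 1 array of each of 2 types (A and B) per population, which gave 4 of the 18 arrays and 2 of the 9 populations of the series. The other populations were germ cells that did not bind laminin, germ cells on STO feeders (a mouse embryonic fibroblast line) for 1, 5, 10 or 20 days, interstitial cells and somatic cells of the tubules. All germ cells came from testes of 22-day-old rats. No strain of rat is stated in the labels. The laminin-binding cells are labelled as cultured, with no day, and the labels do not say whether such cells were the ones placed on feeders or whether feeder cells were removed before RNA was taken. Per the labels, each array had received 50 ng of total RNA amplified in 2 rounds. In such bulk RNA, fewer cells of a type and less RNA per cell cannot be told apart, and RNA of feeder cells, of rat somatic cells and of germ cells in a culture cannot be told apart either. Each side is 1 library, so the values below carry neither errors nor p-values, and so few arrays limit how precise any fold can be.

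Spermatogonial stem cells sit in a niche made largely by Sertoli cells, which secrete the growth factor GDNF. GDNF binds the co-receptor Gfra1 and signals through the receptor tyrosine kinase Ret, and transcription factors such as Etv5, Etv4, Bcl6b and Lhx1 lie downstream. The study's labels name stem cells and spermatogenesis among their keywords, and the comparison asks which transcripts cells on Sertoli-line feeders keep or change relative to a fraction that binds laminin, a common enrichment step for stem spermatogonia.

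Signals under a floor of 50 were raised to it, and a transcript was called higher or lower where its brighter side read at least 250 and the fold was at least 3. Where 1 side read less than the floor, the fold is a lower bound and is written with "at least". Of 31042 probe sets, 740 were called higher on MSC1 (2.38%) and 702 lower (2.26%). Of the 10988 probe sets with a brighter side of at least 250, these were 6.73% and 6.39%. Per gene, read from the probe set with the highest mean log2 signal over the 9 arrays of a type (called its brightest, type A before type B), 358 of 11462 measured genes were called higher (3.12%) and 391 lower (3.41%), and the median log2 difference of the measured genes was 0.11. Of the 6311 genes with a brighter side of at least 250 the shares were 5.67% and 6.2%. Where each array was scaled to its 75th percentile instead, 562 probe sets were called higher and 845 lower, so the share of higher calls was 51.3% as deposited and 39.9% with that scaling. Per gene that scaling gave 253 higher and 501 lower, and it moved the median of the measured genes to -0.03, as quantile normalization did to -0.01. Among the 4463 genes that read at least 250 on both sides, 2375 lay within 1.5-fold (53.2%), and so did 3996 of 7282 such probe sets (54.9%).

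**Figure D1:**
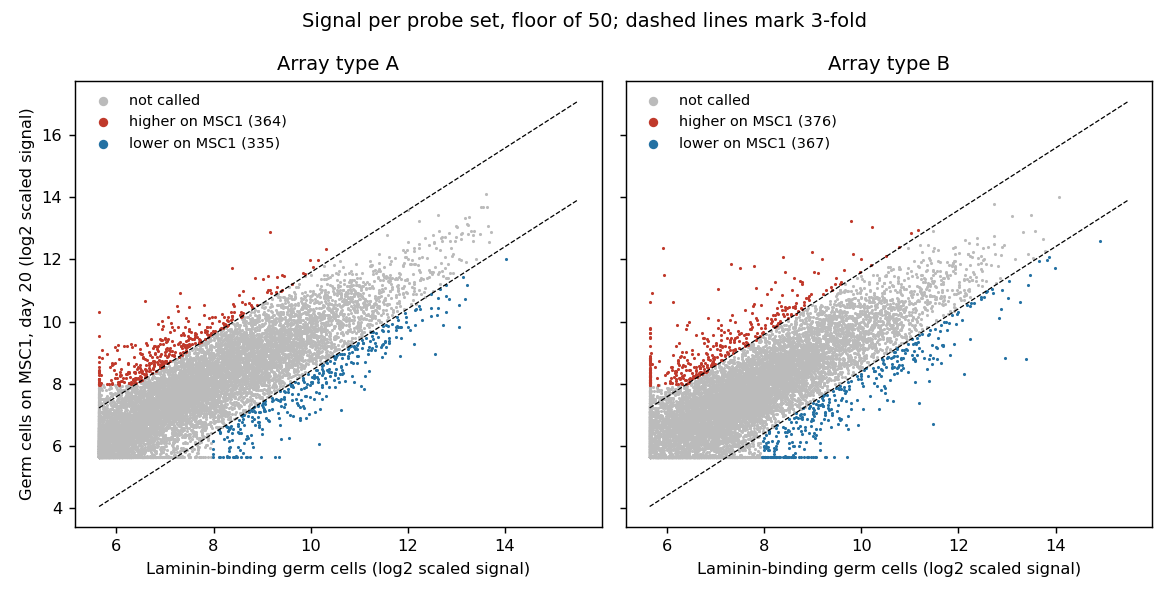
Log2 scaled signal of each probe set in laminin-binding cells (horizontal axis) and in germ cells on MSC1 at day 20 (vertical axis), for array types A and B, with a floor of 50. Red and blue points are the probe sets called higher (364 on type A, 376 on type B) and lower (335 and 367), dashed lines mark 3-fold, and a call needs a brighter side of at least 250.

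The arrays themselves repeated 100 probe sets on both types. Each of these probe sets thus had 2 readings of its log2 difference between MSC1 and laminin-binding cells. The disagreement between the 2 readings had a standard deviation of 0.27 per type, so that 2 standard deviations corresponded to 1.46-fold. This leaves out a mean shift between the types of 0.15 in log2. The direction was the same on both types for 93 of the 100, 8 passed 3-fold on both types and 2 on 1 type only. This spread covers the arrays at these 100 probe sets, and not other probe sets, animals, cultures or amplification.

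**Figure D2:**
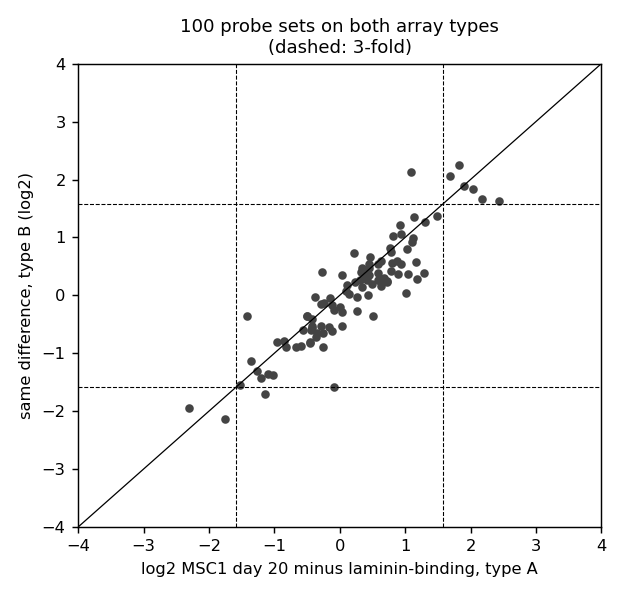
Log2 difference, MSC1 day 20 minus laminin-binding, of the 100 probe sets present on both array types, type A on the horizontal and type B on the vertical axis. The solid line marks equal values and the dashed lines 3-fold. Most points lie near the line of equal values, and 1 probe set differs between the types by 1.49.

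Ratios that serve as a measure of RNA quality were unlike on the 2 sides for Gapdh. For beta-actin they differed less, and not in 1 direction. For Gapdh the signal at the 3' end divided by that at the 5' end, a ratio that shortened RNA raises, was 27.4 and 27.1 on MSC1 (types A and B) and 7.07 and 8.83 in laminin-binding cells. For beta-actin it was 25.8 and 21.0 on MSC1 and 21.6 and 13.1 in laminin-binding cells. The 3' signal divided by that in the middle was, for Gapdh, 6.08 and 4.83 on MSC1 against 2.26 and 1.41. For beta-actin that ratio was lower on MSC1, at 5.84 and 7.82 against 6.94 and 8.82. On type A the 5' signals of laminin-binding cells were under the floor, at 47.0 (Gapdh) and 26.6 (beta-actin). The 3' signal of Gapdh was also higher on MSC1, at 2927 and 6329 against 332 and 649. Level and RNA length are thus not told apart. These differences move with every result below, and their part in them was not tested. In log2 levels across the 8250 type A probe sets that averaged 100 or more over the arrays, MSC1 correlated with laminin-binding cells at 0.78, with STO day 5 at 0.91, with STO day 1 at 0.88 and with STO day 20, the culture of the same age, at 0.77. On type B, with 8830 probe sets, these were 0.74, 0.85, 0.84 and 0.74. All points of these correlations share the array and its scaling, and the values are descriptions.

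The labels were checked against marker genes. Germ cell markers were present on both sides: the summed signal of 10 general germ cell genes was 32994 on MSC1 and 19978 in laminin-binding cells, and 1123.5 and 1123.4 in the interstitial and tubular somatic fractions. The spermatid genes Prm1, Prm2, Tnp1 and Tnp2, which encode the proteins that package sperm DNA, read at most 17.3 in both populations. The Sertoli genes Amh and Sox9 were under the floor on both sides, at 15.2 and 7.1 on MSC1 and 32.0 and 5.5 in laminin-binding cells. Other Sertoli genes were not: 20 of 23 on MSC1 and 17 in laminin-binding cells reached the floor.

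Of 21 measured genes of undifferentiated spermatogonia, 1 was called higher on MSC1 and 2 lower, where the shares over all measured genes were 3.12% and 3.41%. The list median was 0.04 against 0.11 for all measured genes, and -0.06 to 0.29 under other settings. Ret, the signalling receptor of GDNF, read 1145 on MSC1 and 707 in laminin-binding cells, a log2 difference of 0.70 that was not called. A second Ret probe set read 539 and 357. Both libraries lay well above non-binding cells (87.3), STO day 20 (48.6) and the somatic fractions (1.5 and 1.9). Gfra1, the GDNF-binding co-receptor, read 376 and 186, with a second probe set at 221 and 206. Neither probe set of Gfra1 was called, and the level on MSC1 stood above that on STO day 20 (58.6 and 26.8). Nanos3, an RNA-binding protein gene of early germ cells, read 350 on MSC1 and 437 in laminin-binding cells, but 27.2 and 21.6 on STO at days 10 and 20. Snap91, a gene of endocytosis listed here as a spermatogonial marker, read 341 and 273, and 25.8 on STO day 20. Id4, a transcriptional regulator of stem spermatogonia, was dim on both sides, at 52.6 on MSC1 and 148 in laminin-binding cells, and was not called.

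Of the transcription factors downstream of GDNF and FGF, Etv4 and Etv5 were called higher on MSC1. Etv4 read 4582 against 906 in laminin-binding cells, 5.06-fold, and its second probe set read 769 against 123, also called higher. Its signal on MSC1 was the highest among the 9 populations, with 2716 on STO day 1 next. Etv5, an Ets factor needed for stem cell maintenance, read 707 against 199, 3.56-fold, and its second probe set 283 against 87.3. In the other 7 populations the first Etv5 probe set read 237 to 382, so its MSC1 signal stood above all of them. Bcl6b, a transcriptional repressor, read 1274 against 565 and was not called. Spry4, a feedback inhibitor of receptor tyrosine kinases, read 1901 against 906 and was not called. Of 23 measured genes of the GDNF and FGF list 2 were called higher and 1 lower, 19 lay above 0 and the median was 0.65. Of all 11462 measured genes 3.12% were called higher and 3.41% lower, 6370 lay above 0 and the median was 0.11. A further probe set of Dusp6, a phosphatase that turns off ERK, was called higher at 558 against 130, while the probe set brightest over the 9 arrays read 254 against 163 and was not called. The called lower gene was Egr2, an early growth response factor, with 182 against 622. For the same list against the same laminin-binding library, STO day 1 had 1 gene higher, 1 lower and a median of 0.83. STO day 20 had 1 higher, 4 lower and a median of -0.47. Over all measured genes 2.15% were higher and 1.96% lower on STO day 1, and 6.5% and 7.03% on STO day 20. These comparisons share the laminin-binding library and are not independent.

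The lower spermatogonial genes differed in where else they were high. Sox3, a transcription factor of the SoxB1 group, read 144 on MSC1 and 1567 in laminin-binding cells, 10.9-fold lower. Its signal was 144 to 257 in all 5 feeder libraries and 227 in non-binding cells, so laminin-binding cells stood apart from the other germ cell libraries. Epcam, an adhesion molecule of epithelial and germ cells, read 636 against 2153, 3.39-fold lower. In contrast to Sox3, Epcam was high in non-binding cells (2617) and on STO day 20 (2002). Dnmt3a, a de novo DNA methyltransferase, read 537 against 2420, 4.50-fold lower, but a second probe set of the gene read 323 against 223 and was not called. Dnmt1, the maintenance methyltransferase, read 872 against 326 and was not called. Both methyltransferases are on the list of differentiating spermatogonia, of which 9 genes were measured, with Dnmt3a alone called and a median of -0.50. The shares over all measured genes were 3.12% higher and 3.41% lower, and their median was 0.11. The list median was 0.016 over the 6 genes on type A alone, and no member was called with the mean over probe sets.

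**Figure D3:**
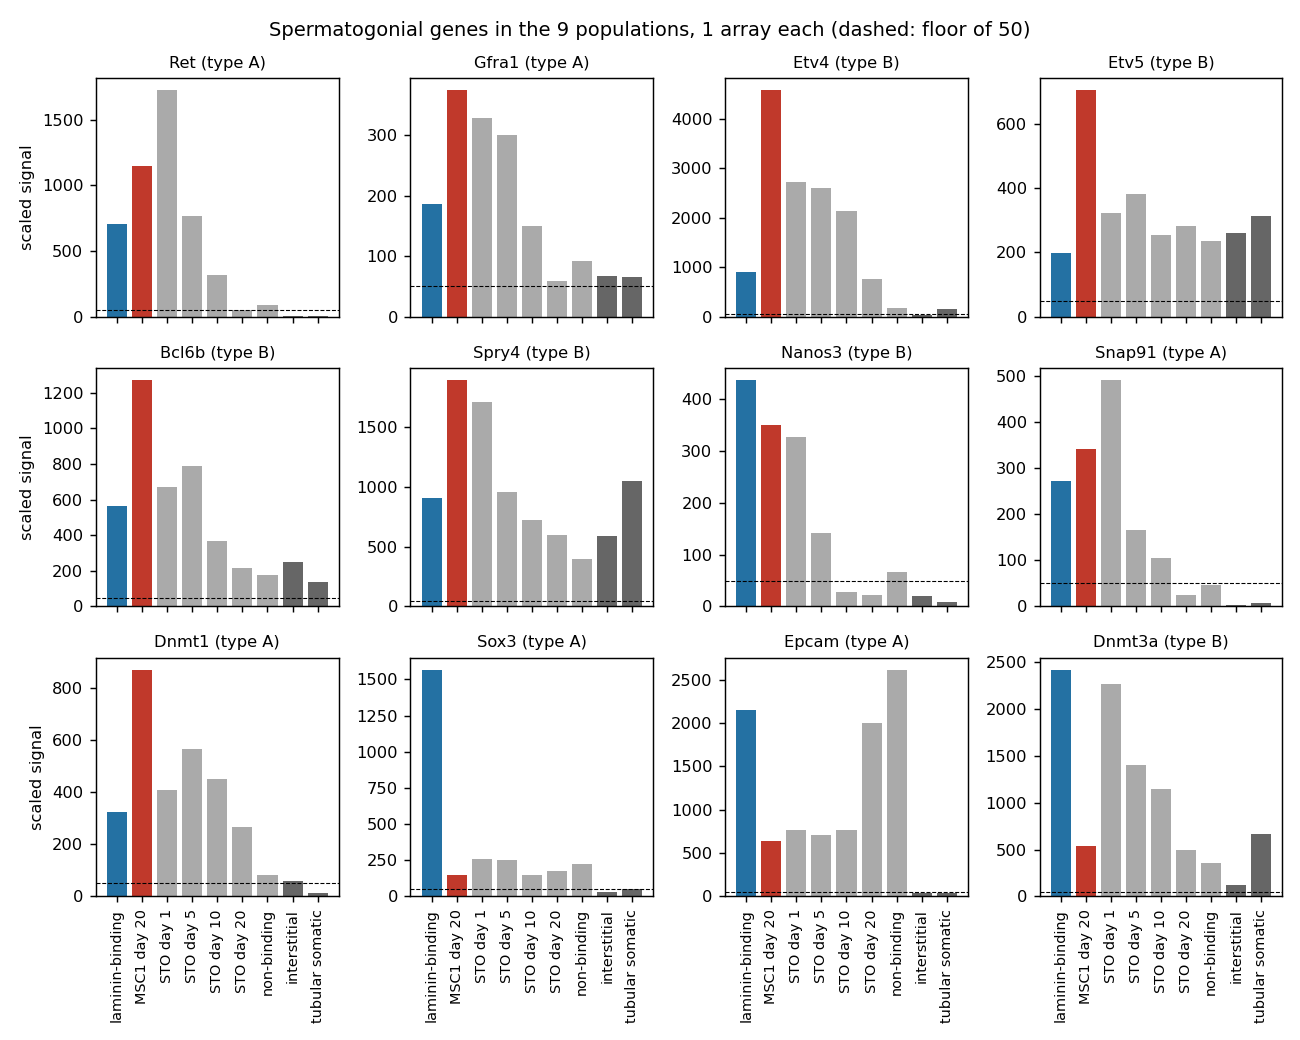
Scaled signal (vertical axis, linear and starting at 0) of 12 spermatogonial genes in the 9 populations, 1 array each. Blue bars are laminin-binding cells, red bars MSC1 day 20, light grey bars the other germ cells and dark grey bars the somatic fractions, and the dashed line is the floor of 50. Etv4 and Etv5 are tallest on MSC1, Ret reads 1145 and Nanos3 350 on MSC1 while both lie under the floor on STO day 20, and Sox3 is tall in laminin-binding cells alone.

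Germ cell and meiotic genes were also present on both sides. Of 10 general germ cell genes 1 was called higher and 1 lower, with a median of 0.51 that turned to -0.22 over the 4 genes on type A alone. For this and the other lists here, the shares over all measured genes were 3.12% higher and 3.41% lower. Tex14, which keeps the bridges between germ cells open, read 5442 against 1756, 3.10-fold higher, a call lost with 75th percentile scaling. Tex19.2, a paralogue of a germline transposon defence gene, read 1011 against 3977, 3.93-fold lower, a call lost with quantile normalization. Tex15 (14006 and 6778) and Tdrd1 (7713 and 2837), which act in piRNA-directed silencing, were not called. Among 8 measured meiotic prophase genes Smc1b was called higher, and the list median was 1.16, or 0.21 with a floor of 100. This subunit of meiotic cohesin read 1422 on MSC1 and 388 in laminin-binding cells, and 2630 in non-binding cells. Spo11, which makes the DNA breaks of meiosis, read 116 on MSC1 and 14.5 in laminin-binding cells, while non-binding cells read 2417 and STO day 20 read 2381. Sycp2, of the synaptonemal complex, likewise read 347 and 160 on the 2 sides, and 2495 and 2501 in those other libraries. The MSC1 signals of Spo11 and Sycp2 thus lay nearer to laminin-binding cells than to STO day 20. Of the 13 measured genes of pachytene and later cells Aurkc, a meiotic kinase, was called higher (329 against 92.6). Ldhc, the germ cell lactate dehydrogenase, read 11.4 and 129 against 6938 in non-binding cells.

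Several genes of collagens and the basement membrane were called higher on MSC1. Of 22 such genes, all measured, 7 were called higher (31.8%), none was called lower, and 22 of 22 lay above 0 with a median of 1.14. For all 11462 measured genes the share called higher was 3.12%, 6370 lay above 0 and the median was 0.11. With 75th percentile scaling or quantile normalization 7 list genes were called and 20 of 21 lay above 0. Over all genes these scalings gave 253 of 11392 and 358 of 11106 called higher, with 5557 and 5482 above 0. With the mean over all probe sets of a gene 4 of 22 were called, against 252 of 11731 over all genes. Nid2 and Nid1, the nidogens that tie laminin to type IV collagen, were among the 7 called higher. Nid2 read 7597 on MSC1 and 576 in laminin-binding cells, 13.2-fold higher. The MSC1 signal of Nid2 was the highest of the 9 populations, above STO day 5 (2554), STO day 1 (2484) and interstitial cells (1896). Nid1 read 968 against 116, 8.35-fold higher, although its second, dim probe set read 105 against 134. Col5a2, a fibril-forming collagen chain, read 1619 against 96.9, 16.7-fold higher, and a second probe set 372 against 58.2. Col3a1 read 604 against 83.9, Col1a1 693 against 128 and Col1a2 539 against 136, all chains of fibrillar collagens. For Col1a2 a second probe set read 1285 against 32.2, at least 25.7-fold higher. Col4a1, the chain of basement membrane collagen, read 332 against 82.4, 4.03-fold higher. The laminin chains were not called: Lamb1 read 844 against 346, Lamc1 673 against 311 and Lama1 235 against 106. Thus 3 chains of laminin had signals above those of laminin-binding cells by less than the 3-fold used for a call.

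The promoters of 4 of these 7 genes are in the RefSeq table used (GRCr8) and are printed because these genes were called in the same direction. Each is the 250 bases before the annotated start, on the strand of the gene: Col5a2 at chr9:55090152-55090401 (minus), Nid1 at chr17:93069036-93069285 (plus), Col4a1 at chr16:84885347-84885596 (plus) and Col1a2 at chr4:33518307-33518556 (plus). Capitals mark 3 motifs on either strand: TATAAA, the TATA box, then CCAAT, the element bound by NF-Y, and lastly GGGCGG, the GC box bound by Sp factors. None of the marked matches overlap.
Col5a2: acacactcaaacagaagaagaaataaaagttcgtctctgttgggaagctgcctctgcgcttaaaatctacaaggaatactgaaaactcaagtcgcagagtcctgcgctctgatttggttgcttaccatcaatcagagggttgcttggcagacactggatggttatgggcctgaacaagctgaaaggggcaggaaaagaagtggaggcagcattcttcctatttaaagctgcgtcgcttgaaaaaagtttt
Nid1: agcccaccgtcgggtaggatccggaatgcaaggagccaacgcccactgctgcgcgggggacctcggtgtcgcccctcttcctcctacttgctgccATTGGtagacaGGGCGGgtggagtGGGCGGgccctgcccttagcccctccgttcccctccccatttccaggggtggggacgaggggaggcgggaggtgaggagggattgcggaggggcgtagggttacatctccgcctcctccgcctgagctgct
Col4a1: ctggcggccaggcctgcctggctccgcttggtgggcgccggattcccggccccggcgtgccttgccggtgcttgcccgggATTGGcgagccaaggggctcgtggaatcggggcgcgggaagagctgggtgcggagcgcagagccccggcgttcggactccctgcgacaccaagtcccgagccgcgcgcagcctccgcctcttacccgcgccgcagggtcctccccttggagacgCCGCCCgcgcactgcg
Col1a2: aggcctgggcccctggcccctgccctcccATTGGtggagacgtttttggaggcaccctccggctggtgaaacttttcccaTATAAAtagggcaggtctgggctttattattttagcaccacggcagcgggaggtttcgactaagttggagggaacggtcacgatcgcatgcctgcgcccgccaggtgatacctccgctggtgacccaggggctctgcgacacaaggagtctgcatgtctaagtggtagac
TATAAA was found in 1 of the 4 (Col1a2), CCAAT in 3 (all but Col5a2) and GGGCGG in 2 (Nid1 and Col4a1). Of 27457 rat promoters of this length, 13.1% hold TATAAA, 34.3% hold CCAAT and 32.4% hold GGGCGG. A match is a description, and no match says only that these letters are not in this window.

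Of 30 measured genes of matrix assembly and fibroblasts 7 were called higher and 1 lower, against 3.12% and 3.41% of all measured genes. The list median was 0.66, or 0.37 with quantile normalization. Fn1, fibronectin, read 1043 against 178, 5.85-fold higher, and Vim, the intermediate filament of mesenchymal and Sertoli cells, 1861 against 366, 5.08-fold. The collagen processing genes Lox, Plod1 and Pcolce read 553 against 114, 981 against 208 and 404 against 75.4. Lox was under the floor on STO at days 1, 5 and 10 (41.3 to 46.0) and read 729 on STO day 20. Sparc was called higher at 406 against 105, but a second probe set read 97.9 against 106. Timp2, an inhibitor of matrix proteases, read 781 against 232, a call lost with 75th percentile scaling. The second probe sets of Timp2 and Lox gave log2 differences of 0.75 and 0.93, under the threshold. Ccn1, a matricellular protein gene induced by serum and stretch, was lower at 58.4 against 372. Of the uncalled genes of this list some were bright on both sides, as Ccn2 (1689 and 2207) and P4ha2 (1869.6 and 969), and others dim. Dcn, decorin, read 39.6 and 54.5 against 4330.3 in interstitial cells, and Pdgfra 106 and 83.4 against 3622. For the collagen list, STO day 1 against the same laminin-binding library had 2 genes called higher and a median of 0.35. STO day 20 had 4 higher, 1 lower and a median of 0.27. Over all measured genes 2.15% were called higher on STO day 1, and 6.5% higher and 7.03% lower on STO day 20.

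Summed signals of some lists of other cells were also higher on MSC1. That of the Leydig list was lower, at 2420 against 6613 in laminin-binding cells, with a list median of -0.09. The summed signal of the collagen list was 16860 on MSC1, 3685 in laminin-binding cells and 32538 in interstitial cells. For 34 macrophage and leukocyte genes it was 6111, 3248 and 14549, with 2 of 26 measured genes called higher. These were Lyz2, lysozyme (1103 against 172), and Ccl2, a monocyte chemokine also made by fibroblasts (619 against 119). Of the 26 measured genes 23 lay above 0, with a median of 0.68. Of all 11462 measured genes 6370 lay above 0, the median was 0.11, and 3.12% were called higher. Of the defining leukocyte genes Ptprc, Itgam and Cd3e were under the floor on both sides, and Cd68 read 201 against 45.2. For 15 peritubular myoid and smooth muscle genes the sum was 3375 on MSC1, 1551 in laminin-binding cells and 10947 in tubular somatic cells. Of the 12 measured 11 lay above 0, with a median of 0.79, while Acta2 was under the floor on both sides compared. Tpm2, a tropomyosin, was called higher (1029 against 123), but a second, dim probe set read 89.0 against 64.3. For 23 Sertoli genes the sums were 5564, 4450 and 23050 in the same order, and 20 genes on MSC1 and 17 in laminin-binding cells reached the floor. Clu, clusterin, was the 1 of 20 measured Sertoli genes called higher (602 against 74.3), while Wt1 read 74.8 and 155 and Cldn11 616 and 637. None of 10 measured endothelial genes was called, and Hbb, a globin gene, read 14.4 and 12.3. The part of other cells in the matrix result was not tested.

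The immediate early response follows growth factor and stress signals quickly and needs no new protein. Of 22 measured genes 3 were called lower and none higher, where 3.41% of all measured genes were called lower, and the list median was -0.62. Atf3, a stress-induced transcription factor, read 66.8 on MSC1 and 1159 in laminin-binding cells, 17.4-fold lower. It read 56.8 to 73.1 on the STO feeders, 376 in non-binding cells and 409 in tubular somatic cells, so laminin-binding cells were the highest of the 9. Ier2 (352 against 1112) and Egr2 were the other called genes. Egr1 fell just outside the threshold, at 1533 against 4579, 2.99-fold, and Fosb read 430 against 1101. STO day 1 had 7 and STO day 20 had 5 genes of this list called lower against the same laminin-binding library, with medians of -1.05 and -0.96. Over all measured genes 1.96% were called lower on STO day 1 and 7.03% on STO day 20.

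Of 21 cholesterol synthesis and uptake genes 3 were called lower and none higher, against 3.41% of all measured genes called lower. The list median was -0.87, with 15 of 21 below 0, and -0.44 with the mean over probe sets. Sqle, squalene epoxidase, read 48.1 against 409, at least 8.18-fold lower. Cyp51, the lanosterol demethylase, read 181 against 1066, 5.89-fold lower, and its MSC1 signal was the lowest of the 9 populations. A second, dim Cyp51 probe set read 60.8 against 161 and was not called. Stard4, a sterol carrier, read 370 against 1302, but 2 other probe sets read 252 against 239 and 410 against 629. Fdps, which makes farnesyl diphosphate, read 819 against 2383 and was not called. On STO day 1 the list had no call in either direction and a median of -0.31, and on STO day 20 it had 1 higher, 2 lower and a median of -0.62. Over all measured genes 2.15% were higher and 1.96% lower on STO day 1, and 6.5% and 7.03% on STO day 20.

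Of 20 measured genes of oxidative stress and glutathione 5 were called lower and 1 higher, against 3.41% and 3.12% of all measured genes. The list median of 0.14 was near that of all measured genes, 0.11, and was -0.04 with 75th percentile scaling, -0.06 with quantile normalization and -0.24 with the mean over probe sets. Hmox1, heme oxygenase, read 102 against 663, Sod2, the mitochondrial superoxide dismutase, 133 against 639 and Srxn1, sulfiredoxin, 73.0 against 334. Gclm, a subunit of the enzyme that starts glutathione synthesis, read 589 against 1902, and its partner Gclc 289 against 112, which was not called. Sod1, the cytosolic superoxide dismutase, read 2325 against 7045, 3.03-fold, close to the threshold. Gpx1, a glutathione peroxidase, was higher, 1204 against 289. With quantile normalization Sod1 and Gclm were no longer called.

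In oxidative phosphorylation 4 of 29 measured genes were called lower and none higher, against 3.41% of all measured genes called lower, with a median of -0.05 that quantile normalization turned to 0.14. Cox6c read 479 against 3664.5, Ndufv2 83.1 against 509, Uqcrfs1 308 against 1842 and Ndufb3 1478 against 8459.5, subunits of complexes IV, I, III and I. Cox6c read 522 to 765 on the STO feeders and 2423 to 3664.5 in the 4 libraries without feeders. Of the 24 genes with at least 250 on both sides 11 lay within 1.5-fold, where the share over all genes was 53.2%. Among the 11 were Uqcrc1 (2842 and 2990) and Cox5b (1744 and 1745). In glycolysis, Eno1 (996 against 139) and the glucose transporter Slc2a3 (466 against 82.2) were called higher and Aldoc (21.5 against 318) lower. These were out of 25 measured genes with a median of 0.50. Over all measured genes 3.12% were called higher and 3.41% lower, with a median of 0.11.

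Interferon-induced and antigen presentation genes had 4 of 28 called lower and none higher, against 3.41% of all measured genes called lower, and a median of -0.20. Isg15, a ubiquitin-like modifier, read 361 against 2600, 7.21-fold lower, Rsad2, viperin, 61.6 against 320, and the regulator Irf7 269 against 1023. B2m, the light chain of MHC class I, read 352 against 1116, and its second probe set 115 against 882, both called lower. The immunoproteasome subunit Psmb8 was not called (1381 and 914). Tubular somatic cells were far above both libraries, with Isg15 at 24230, Irf7 at 6321 and B2m at 6154. STO day 20 had 15 of 26 genes of this list called lower against the same laminin-binding library, with a median of -1.96, and STO day 1 had 4 of 27 and -0.67. Over all measured genes 7.03% were called lower on STO day 20 and 1.96% on STO day 1.

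**Figure D4:**
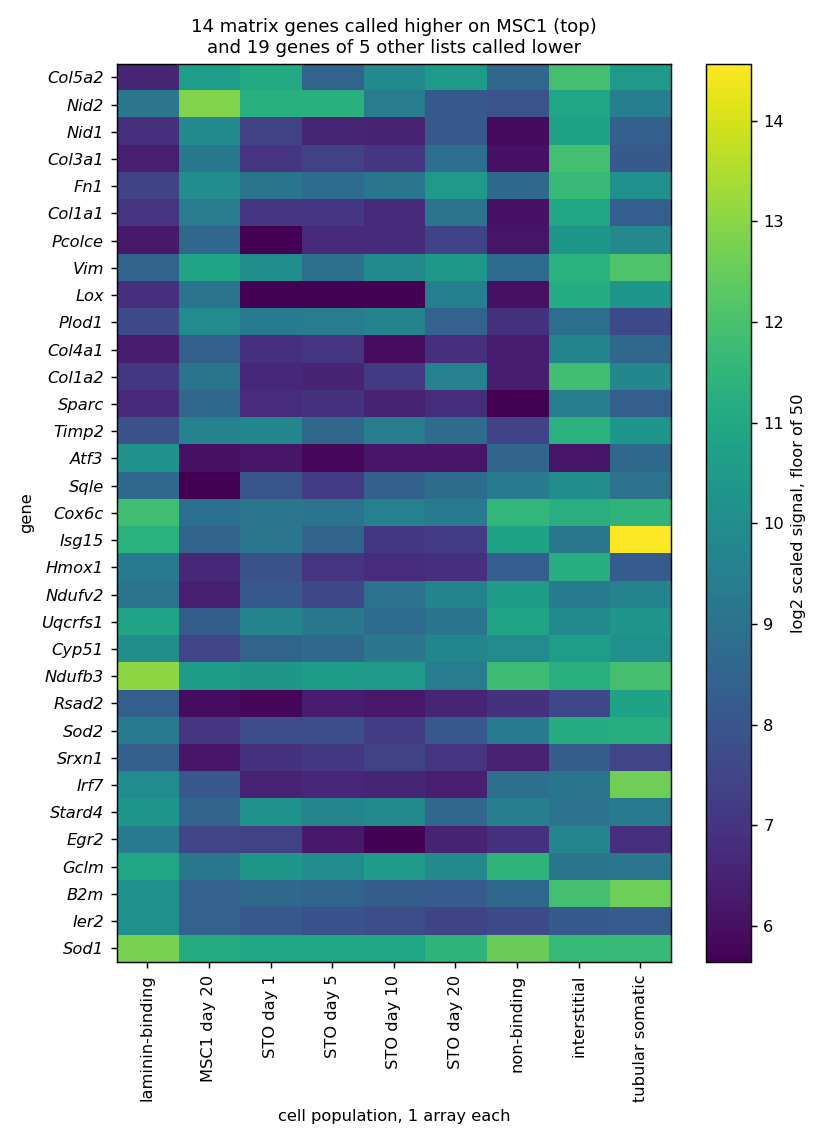
Log2 scaled signal (colour, floor of 50) of the 14 matrix genes called higher on MSC1 (upper rows) and of 19 genes called lower from the immediate early, cholesterol, oxidative stress, oxidative phosphorylation and interferon lists (lower rows), in the 9 populations with 1 array each. Most upper rows are dark in laminin-binding and non-binding cells and bright in interstitial cells, and several of the lower rows, such as Atf3, are brightest in laminin-binding cells.

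None of 36 measured cell cycle genes was called at its brightest probe set, and the median was 0.23. Over all measured genes 3.12% were called higher and 3.41% lower. Of 30 cell cycle genes with at least 250 on both sides 19 lay within 1.5-fold, where the share over all genes was 53.2%. Pcna, the sliding clamp of DNA replication, read 2516 and 2515, and Mcm7, a helicase subunit, 2141 and 2834. Cdc45, also of the replicative helicase, read 3681 and 5440 at its brightest probe set, while another read 437 against 2206.5 and was called lower. Cdc20, an activator of the anaphase-promoting complex, had 4 other probe sets called higher (332 to 699 against 52.0 to 130). Hence a gene without a call at its brightest probe set can still have one elsewhere, as 15 list genes did.

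Receptors for laminin and adhesion genes had 1 of 30 called higher, 1 lower and a median of 0.32. Over all measured genes 3.12% were called higher and 3.41% lower, with a median of 0.11. Itga6, the integrin chain used to sort spermatogonial stem cells, was dim on type A (92.9 and 76.1), whereas on type B it read 2494 on MSC1 and 3270 in laminin-binding cells, within 1.5-fold. Itgb1, its usual partner chain, read 552 and 632. Dag1, dystroglycan, a laminin receptor outside the integrin family, was called higher, 1051 against 314, a call lost with 75th percentile scaling and over its other probe sets. Epcam was the gene called lower. Rpsa (862 against 179) and Cd47 (410 against 134) were called higher only at a probe set other than the brightest. Vcl was likewise called lower only at another probe set (206 against 789).

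**Figure D5:**
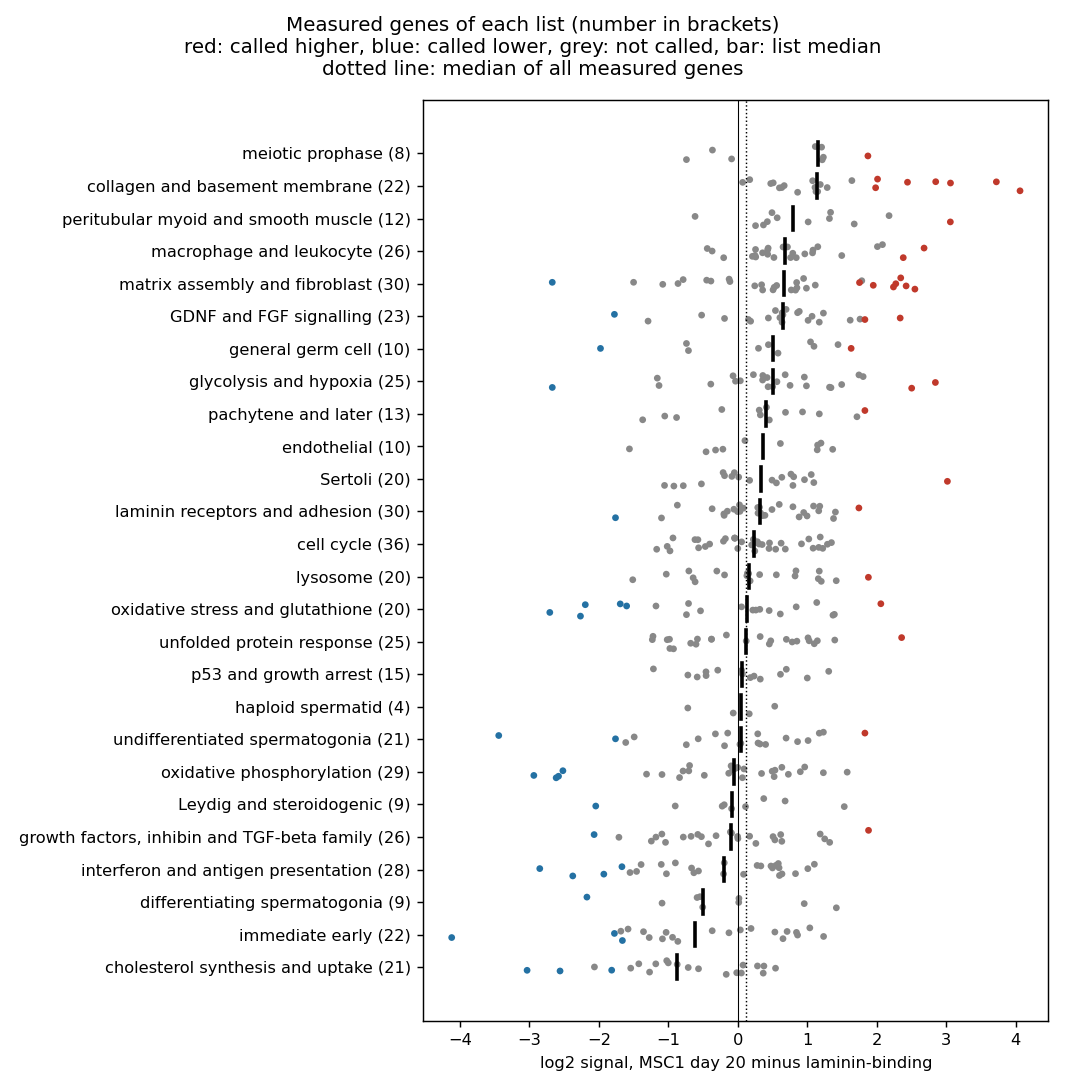
Log2 difference, MSC1 day 20 minus laminin-binding (horizontal axis), of each measured gene of 26 gene lists with at least 4 measured genes, ordered by list median (black bars). Red and blue points are called higher and lower, grey points are not called, and the dotted line is the median of all measured genes, 0.11. The collagen and basement membrane genes all lie right of 0, and the cholesterol (-0.87) and immediate early (-0.62) lists are the lowest in this plot.

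The calls of the remaining lists stand beside shares over all measured genes of 3.12% higher and 3.41% lower. Manf of the unfolded protein response (256 against 15.2) was 1 of 25, and Man2b1 of the lysosome (2064 against 561) 1 of 20, with a second Man2b1 probe set at 5.1 against 116. Of 26 growth factor genes Csf1, the macrophage growth factor, was higher (402 against 109, not called over its 3 other probe sets) and Igfbp6, a binding protein of insulin-like growth factors, lower (60.7 against 254). None of 15 measured p53 and growth arrest genes was called. Of 9 measured Leydig genes Fdx1, the ferredoxin of steroid synthesis, was lower (1390.5 against 5734). Fdx1 read 4126 in non-binding cells, and the Leydig genes Cyp17a1, Hsd3b1 and Nr5a1 were under the floor on both sides.

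Among named calls above the floor on both sides the largest fold was at a probe set of Eef2, translation elongation factor 2, with 5258 on MSC1 and 60.2 in laminin-binding cells, 87.3-fold. This probe set read 2003 to 4964 in the 4 STO libraries and at most 116 in the 4 libraries without feeders, so it separated cells on feeders from all others. Tfap2c, a transcription factor of early germ cells, read 1584 on MSC1 and 30.7 in laminin-binding cells, at least 31.7-fold. Its next highest signal was 160, on STO day 1, 9.92-fold under MSC1. Of all probe sets, 16 read at least 3-fold above each of the other 8 populations on MSC1, 9 of them with a gene name. Beside Tfap2c these included C20h6orf15 (4850.2 against 506), Ssh1, a phosphatase acting on cofilin (4349.5 against 337), the histone methyltransferase gene Kmt2a (2144 against 132) and the ephrin receptor Epha2 (669 against 132). The 6 other probe sets of Kmt2a averaged a log2 difference of 1.01, against 4.02 for the one named. Cp, ceruloplasmin, read 743 against 4.8, at least 14.9-fold, and Scd2, a fatty acid desaturase, 886 against 5.1. Over their other probe sets the log2 difference averaged 0.29 for Cp (2 probe sets) and 0.84 for Scd2 (3 probe sets), which would not be called. The named Scd2 probe set was high on all STO feeders too (822 to 1768), whereas that of Cp was 10.5 to 115 there and 1524 in interstitial cells.

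At the other end, Hps6, a lysosome biogenesis gene, read 106 against 2834, 26.8-fold lower, and was the lowest of the 9 populations. It was 1 of 16 probe sets at least 2-fold below each other population. Tnrc6c, a partner of Argonaute in microRNA silencing, read 459 against 7919, 17.2-fold lower, but the log2 difference averaged -0.46 over 4 other probe sets of the gene. Arpc3, an actin nucleation subunit, read 503 against 6036. Arpc3 was also lower on STO at days 1 to 20 (507 to 829) than in non-binding cells (1875). Ptgis, prostacyclin synthase, read 50.2 against 648. Irak3, an inhibitor of Toll-like receptor signalling, read 45.3 against 694, at least 13.9-fold lower, and 4718 in interstitial cells. Of 4438 genes with several probe sets, 10 had calls in both directions, among them Hsp90ab1 (1409 against 181 and 244 against 2095), Chd4 (919.5 against 170 and 99.1 against 664) and Eif3c (879 against 279 and 102 against 974). For these genes the direction depended on the probe set.

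Transcripts split by where they are found in other libraries gave a further view. Germ-enriched and soma-enriched probe sets were picked from the non-binding, STO day 1 and somatic libraries. These are not among the 4 arrays compared, but the choice is not independent of the comparison. STO day 1 is itself a feeder library and correlated on type A at 0.88 with MSC1 and 0.84 with laminin-binding cells. Soma-enriched probe sets had to be at least 3-fold brighter in a somatic library than on STO day 1. This left out matrix genes such as Nid2 (2484 on STO day 1) and Col5a2 (2212). The part of this choice in the counts was not tested. Of 368 bright germ-enriched probe sets 22 were called higher (5.98%) and 34 lower (9.24%). Of 743 bright soma-enriched ones 63 were called higher (8.48%) and 99 lower (13.3%). For all bright probe sets the shares were 6.73% and 6.39%. In both sets lower calls outnumbered higher ones. In comparisons that share the laminin-binding library, STO day 1 had 238 genes higher (2.15%) and 217 lower (1.96%), and STO day 20 had 715 (6.5%) and 773 (7.03%).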

How the data were processed

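Per the labels, the authors brought the intensity values of each array, 1 linear number per probe set, to a common average of 250. No source used here names the array software. Scale factors were 1.10 and 3.10 on MSC1 and 1.03 and 4.01 in laminin-binding cells (types A and B). Detection calls were not used here. Control probe sets (57 per type) were dropped, and 100 other probe sets that both types hold were counted once, on type A. In the platform annotation 12789 type A probe sets have 1 gene, 312 several and 2822 none, and 7570, 100 and 7663 on type B. Names were given to those with 1 gene.

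Differences were taken on log2 signals within a type, with Python 3.11.15, pandas 2.3.3 and NumPy 2.4.6, and the calling step was tested on simulated data. Each gene took the values of its brightest probe set, from type A before type B, and counted as measured above the floor of 50 on either side. The 27 lists hold 570 genes on the arrays, 23 of them in several lists, and 492 were measured. The rule for named genes took the 10 largest folds in each direction with both sides above the floor. It also took the 10 brightest in each direction with 1 side under the floor. All called list genes, the 10 brightest list genes kept within 1.5-fold, and markers were added. Only some of the genes with the largest folds, the brightest genes and the kept genes are described above. Other list genes, the genes called both ways and those highest or lowest on MSC1 were named after their values were seen. Members and lists were chosen with earlier results of these data known. Alternatives were other floors, scalings, thresholds, array types and probe sets.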

Additional observations from a re-analysis of the deposited data

How the results depend on the processing

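With another floor, or without probe sets high in a somatic fraction, the counts of called and kept probe sets stayed within 1.5 times their values as reported, and the share of higher calls moved to 39.9% only with scaling to the 75th percentile. Higher calls numbered 400 with a brighter side of at least 500, 1910 at 2-fold, 242 at 5-fold, 364 on type A and 376 on type B. Lower calls numbered 1705 at 2-fold, 237 at 5-fold, 335 on type A and 367 on type B. Kept probe sets numbered 7872 and 1915 at a brightness of 100 and 500, and 2059 and 1937 on types A and B alone. These follow from the thresholds and the number of probe sets. List medians moved to -1.04 (immediate early, 75th percentile), 0.37 (matrix assembly) and -1.17 (cholesterol) with quantile normalization, and to -0.44 (cholesterol) and -0.24 (oxidative stress) with the mean over probe sets. The median of meiotic prophase moved to 0.21 with a floor of 100. On type A alone, differentiating spermatogonia turned to 0.016 and general germ cells to -0.22, with fewer genes. Of 93 named probe sets 87 to 93 kept their call under another floor or scaling. Tex14, Timp2 and Dag1 lost it with the 75th percentile, Epcam, Tex19.2, Fdx1, Gclm and Sod1 with quantile normalization, Igfbp6 with a floor of 100, and Manf with all of these. Of 35 with other probe sets, 8 kept the call, 20 lost it and 7 turned: Tubb6 (-1.24), Oga (0.010), Eif3c (1.65), Dnmt3a (0.54), Nid1 (-0.35), Sparc (-0.12) and Man2b1 (-1.22), where the cause was not tested. No paired analysis was possible because each population has 1 array per type. Folds of signals near the floor are the least sure, and the floor stood for unscaled signals of 45.5 and 48.6 on type A but 16.1 and 12.5 on type B (MSC1 and laminin-binding).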
